A study of Sus scrofa with 28 samples.

Results

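The genes described here build the contractile machinery of muscle and move calcium and other ions in and out of its cells. They were chosen by name: every probe set whose gene symbol belongs to the families of myosin heavy and light chains, myosin-binding proteins, myozenins, myomesins, troponins, tropomyosins, actinins and actins, leiomodins, nebulin, titin, PDZ and LIM proteins of the Z-disc, ankyrin repeat domain proteins, calcium, potassium, sodium and chloride channels, ryanodine receptors, the sodium and calcium pumps, acetylcholine receptors, junctophilins, parvalbumin and the small regulators of the calcium pump. Of 5226 probe sets in the deposited table, 39 met this rule, and they stand for 31 genes. No sodium channel or acetylcholine receptor was among them, and SCNM1, a splicing factor, entered only because its symbol begins like those of the sodium channels. ACTC1, TNNT2 and CASQ2 were left out by the rule.

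RNA of the loin (longissimus dorsi muscle) was measured on one-colour Affymetrix porcine arrays, one per piglet, in 14 purebred Iberian piglets (IB) and 14 piglets from Iberian sows and Duroc boars (DU×IB). All 28 were males, suckled by their mothers and slaughtered at weaning at 28 days of age. Animals of one type shared litters, the labels do not say which, and there were fewer crossbred than purebred litters, so the tests treated littermates as independent. Because all dams were Iberian, the comparison contrasts the breed of the sire.

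Striated muscle contracts when myosin thick filaments pull on actin thin filaments that are anchored at the Z-disc. The pull is released by calcium, which leaves the sarcoplasmic reticulum through the ryanodine receptor, binds troponin on the thin filament, and is pumped back by the SERCA pumps encoded by ATP2A1 in fast fibres and ATP2A2 in slow fibres. Slow and fast fibres use different isoforms of many of these proteins, and vessels, nerves and connective tissue between the fibres use non-muscle and smooth muscle isoforms of myosin, actin and tropomyosin.

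The table holds only probe sets that varied between arrays, and most genes of the sarcomere were not analysed here. Of 15 skeletal muscle marker genes, ATP2A1 and RYR1 had a probe set, and their mean level per piglet lay between 9.68 and 11.19 in IB (median 10.46) and between 9.90 and 10.80 in DU×IB (median 10.43), on the log2 scale used throughout. The arrays had been hybridized in 2 series, of 16 and 12 arrays, each with equal numbers of both genetic types (8 and 8, then 6 and 6). Spike-in controls averaged 8.93 to 9.68 in the series of 16 and 6.19 to 7.01 in the series of 12, and the series differed at 4185 probe sets (80.1%). Among the 39 members the series effect passed the same threshold at 25, of which 17 were lower in the series of 12. Over all probe sets the balance was the other way, with 1188 of the 4185 lower in the series of 12 and 2997 higher. Series was therefore a block in the test, and each difference below is also given within each series.

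Between genetic types, 4 of the 39 probe sets differed at an adjusted p under 0.10, the error rate used throughout. These were JPH2, CLCN5 and MYH10, higher in DU×IB, and ANKRD44, higher in IB. That is 10.3% of the members, beside 2.77% of all 5226 probe sets (145, of which 108 were higher in DU×IB). In the direction of DU×IB the background was 2.07% and in that of IB 0.708%. All 4 are in the list of genes that the study selected on these same arrays, and JPH2, CLCN5 and MYH10 carry a symbol only through that list, so they could be members only by having been selected. Among the 36 members named by the platform annotation, 1 passed (2.78%), beside 3.07% of the 2345 probe sets it names. With each array centred on its median, 2 of the 39 passed, CLCN5 higher and ANKRD44 lower in DU×IB. The share of all probe sets that passed with centring was not computed. Without the series in the model, CLCN5 alone passed, where the background was 0.995%. None of the members passed within the series of 16 (background 0.172%), and 3 did within the series of 12 (background 4.38%): ANKRD44, MYL6 and MYL3.

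Over the whole set the differences leaned to the crossbred piglets. The difference of DU×IB minus IB was positive at 29 of 39 probe sets (74.4%, beside 52.5% of all), with a median of 0.19 (0.02 over all probe sets). At an unadjusted p under 0.05 stood 10 members (25.6%, beside 13.8%). Of the 34 members outside the study's list, none passed the adjusted threshold in limma, as was so among all 4955 probe sets outside it, 5 had an unadjusted p under 0.05 (14.7%, beside 9.14% of those outside it), and their median difference was 0.18 (0.01 over all outside it). The median over the 39 was 0.04 within the series of 16 and 0.33 within the series of 12, and over all probe sets 0.05 and -0.05.

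**Figure D1:**
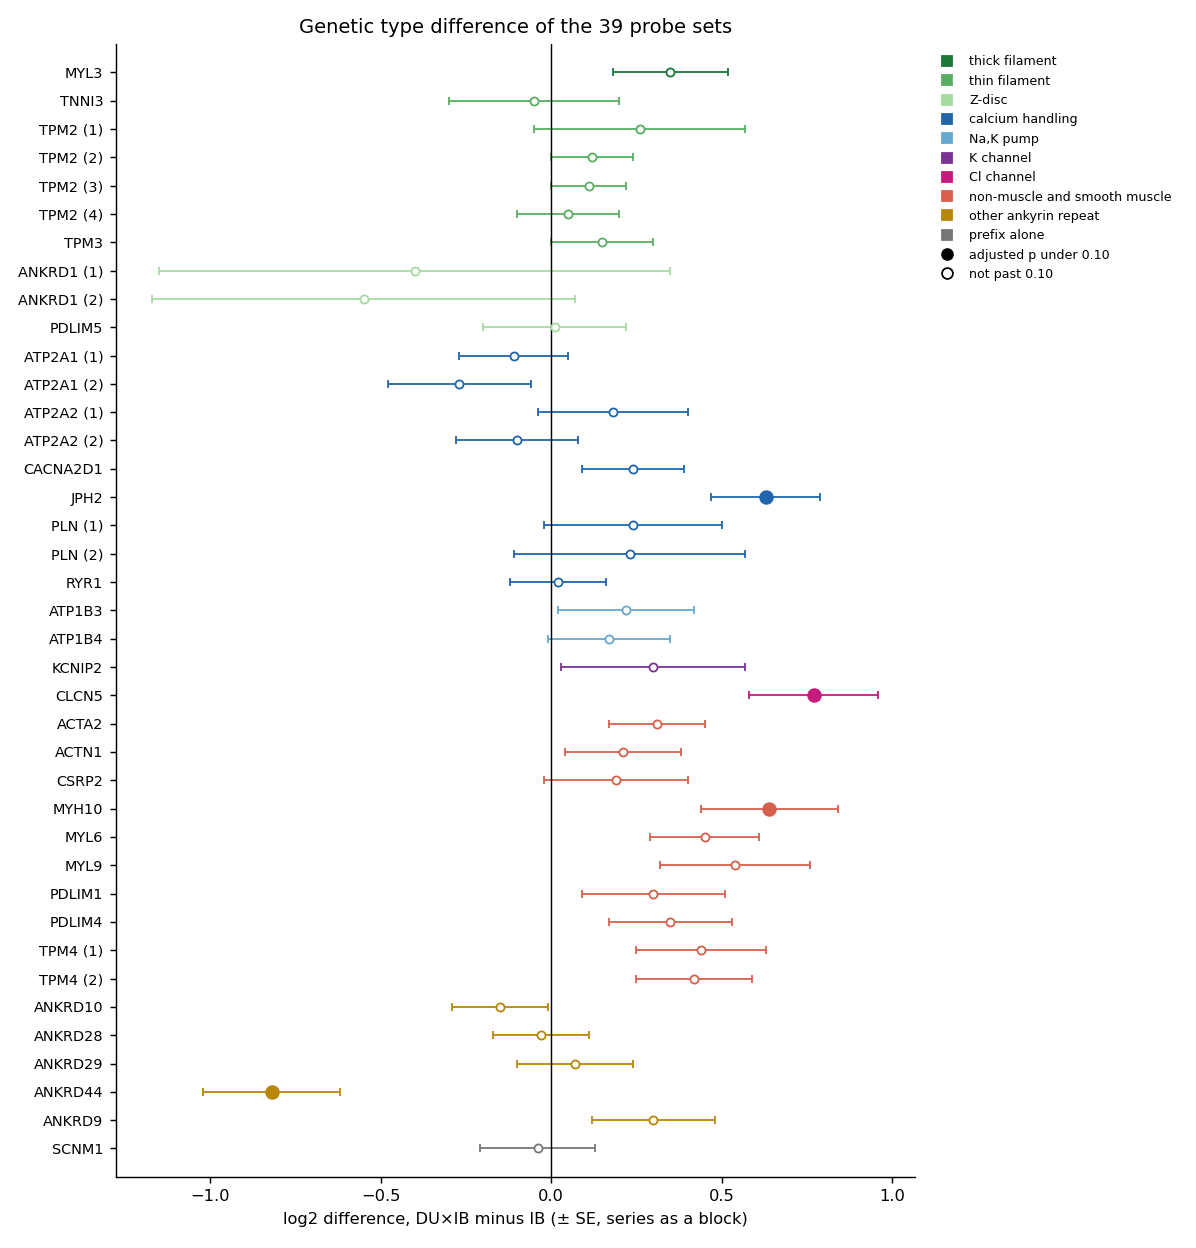
Difference in log2 level between genetic types (DU×IB minus IB) for the 39 probe sets, with its standard error from the model with series as a block, coloured by role, with the probe sets of one gene numbered from the highest difference down. Filled points passed the adjusted threshold of 0.10: JPH2, CLCN5 and MYH10 lie to the right of 0 and ANKRD44 to the left.

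Among sarcomeric proteins the thick filament was represented by MYL3 alone, the essential light chain of slow and ventricular myosin. Its level in IB ran from 11.75 through a median of 12.95 to 14.27, and in DU×IB from 12.87 through 13.25 to 13.91. Over both series together, all DU×IB piglets thus lay inside the IB range (SD 0.74 in IB against 0.33, n = 14 each). These values include the contrast between series (-0.71), and within series the SD was 0.51 in IB against 0.30. In the series of 12, IB ran from 11.75 to 13.07 and DU×IB from 12.87 to 13.62. A wider spread in IB within series was found at 76.4% of all probe sets. The difference was 0.35 ± 0.17 (SE), with an adjusted p of 0.353 and an unadjusted p of 0.0482. It was 0.03 within the series of 16 and 0.78 within the series of 12, where it reached an adjusted p of 0.0956, and 6 of 6 DU×IB piglets of that series lay above the IB median. The interaction of genetic type with series had an unadjusted p of 0.0279 and an adjusted p of 0.742, so the series were not shown to differ.

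The thin filament gave 6 probe sets: 4 of TPM2, the beta tropomyosin of skeletal muscle, 1 of TPM3, the slow fibre tropomyosin, and 1 of TNNI3, the inhibitory troponin of the heart. None passed, and the differences ran from -0.05 for TNNI3 to 0.26 for TPM2 (1), as the probe sets of a gene are numbered here from the highest difference down, with a median of 0.12. TPM2 (2) ran from 13.44 through 15.04 to 15.35 in IB and from 14.04 through 15.08 to 15.42 in DU×IB. Its difference was 0.12 ± 0.12, with a 95% interval from -0.11 to 0.36 and an adjusted p of 0.713. The groups overlapped almost fully. The contrast between series was larger, at -0.94 for this probe set, and all 6 thin filament probe sets were lower in the series of 12. Within the series of 16 the difference was positive at 1 of the 6 and within the series of 12 at 6 of 6. For TPM2 (4) it was -0.23 and 0.43, with an unadjusted interaction p of 0.0246 and an adjusted one of 0.717.

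The probe sets of one gene did not always follow each other. Correlations between members were computed over piglets, within each series and with the mean of each genetic type removed, for 68 pairs in both series (136 relations, Benjamini-Hochberg adjusted together, permutation tests). The values of a pair share their arrays. TPM2 (2) and TPM2 (3) correlated at r = 0.93 (rho = 0.94) in the series of 16 and r = 0.97 (rho = 0.99) in that of 12, each with a permutation p of 1e-05, the smallest the resampling can give. Without the 2 piglets farthest from the median, r was 0.89 and 0.93. TPM2 (1) correlated with the other TPM2 probe sets at r of 0.35 to 0.44 in the series of 16 and 0.38 to 0.59 in the series of 12, and none of these pairs passed by r after adjustment. By rho, TPM2 (1) with TPM2 (4) passed in the series of 12 (rho = 0.62, adjusted p = 0.0893).

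In the group of Z-disc and titin proteins, ANKRD1, the stress-responsive cardiac ankyrin repeat protein that binds titin's elastic segment, was the most variable of all members. ANKRD1 (1) ran from 4.80 through 10.28 to 14.03 in IB and from 7.15 through 10.16 to 12.22 in DU×IB. ANKRD1 (2) ran from 5.29 through 7.49 to 10.24 in IB and from 4.41 through 6.74 to 10.44 in DU×IB. Levels thus spanned several log2 units inside each type: the SD within type and series was 2.21 and 1.82, and that of the other members 0.24 to 0.97. The differences, -0.40 ± 0.75 and -0.55 ± 0.62, had adjusted p of 0.878 and 0.775, and the first had a 95% interval from -1.93 to 1.13. The pair correlated at r = 0.56 (permutation p = 0.0210, adjusted p = 0.0582; rho = 0.48, adjusted p = 0.141; r without 2 piglets 0.51) in the series of 16 and r = 0.12 (permutation p = 0.712) in the series of 12. PDLIM5, a Z-disc scaffold of PDZ and LIM domains, differed by 0.01 ± 0.21 (adjusted p = 0.993).

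Calcium handling held 9 probe sets of 6 genes, and JPH2 was its only member to pass. JPH2 encodes junctophilin 2, which ties the sarcoplasmic reticulum to the surface membrane and so helps to hold calcium channel and calcium release channel together. Its level in IB ran from 8.77 through 10.09 to 10.81, and in DU×IB from 9.94 through 10.61 to 10.96. The crossbred piglets were all in the upper part of the IB range or just above it, with an SD of 0.26 against 0.57. They were 1.55-fold higher, a difference of 0.63 ± 0.16 with an adjusted p of 0.0377. In the series of 16, IB ran from 9.32 through 10.13 to 10.81 and DU×IB from 10.51 through 10.80 to 10.96, so that 8 of 8 crossbred piglets lay above the IB median (difference 0.68). In that of 12, IB ran from 8.77 through 9.94 to 10.50 and DU×IB from 9.94 through 10.45 to 10.63, with 5 of 6 above the IB median (difference 0.57). Neither series alone carried the call (adjusted p = 0.526 and 0.221), nor did the fit without series (adjusted p = 0.141) or the one on median-centred arrays (difference 0.60, adjusted p = 0.102).

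Of calcium channel genes the members held only RYR1 and CACNA2D1, an auxiliary subunit, and neither differed past the test. No other subunit of a voltage-gated calcium channel was among the members. RYR1, the calcium release channel of skeletal muscle, ran from 11.90 through 12.54 to 13.53 in IB and from 11.79 through 12.62 to 13.40 in DU×IB. Its difference was 0.02 ± 0.14, with a 95% interval from -0.26 to 0.31 and an adjusted p of 0.969. CACNA2D1, the auxiliary alpha-2/delta subunit of voltage-gated calcium channels, ran from 8.46 through 9.33 to 10.20 in IB and from 9.19 through 9.48 to 10.10 in DU×IB. Its difference was 0.24 ± 0.15 (interval -0.08 to 0.55, adjusted p = 0.547), with 8 of 8 crossbred piglets above the IB median in the series of 16 and 4 of 6 in the series of 12.

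The pumps and their regulator did not pass either. Both ATP2A1 probe sets, for the fast fibre SERCA, were lower in DU×IB, by -0.27 ± 0.21 (adjusted p = 0.641) and -0.11 ± 0.16 (adjusted p = 0.846). These probe sets moved in opposite directions between series, by 1.02 and -0.65. The 2 probe sets of ATP2A2, the slow fibre SERCA, disagreed in sign (0.18 ± 0.22 and -0.10 ± 0.18), and their correlation of r = 0.25 in the series of 16 and -0.24 in the series of 12 did not pass (rho = 0.06 and -0.27, permutation p = 0.342 and 0.451). ATP2A2 (1) was low, with means of 4.47 in IB and 4.65 in DU×IB, against 7.52 and 7.42 for ATP2A2 (2). PLN, phospholamban, the small protein that restrains the slow SERCA, differed by 0.24 ± 0.26 and 0.23 ± 0.34 (adjusted p = 0.757 and 0.847). Its probe sets followed each other over piglets, with r = 0.94 (rho = 0.89) in the series of 16 and 0.98 (rho = 0.94) in that of 12, each at a permutation p of 1e-05.

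A further probe set bears on this group without being a member. The platform names it MRLN, the gene of myoregulin, a micropeptide that restrains SERCA, while the study's list names it ACBD6, which took precedence in the naming rule. Its level in IB ran from 3.28 through 4.21 to 9.55 and in DU×IB from 2.93 through 3.48 to 4.33, a difference of -1.31 ± 0.42 with an adjusted p of 0.125. Which of the transcripts it measures was not tested.

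**Figure D2:**
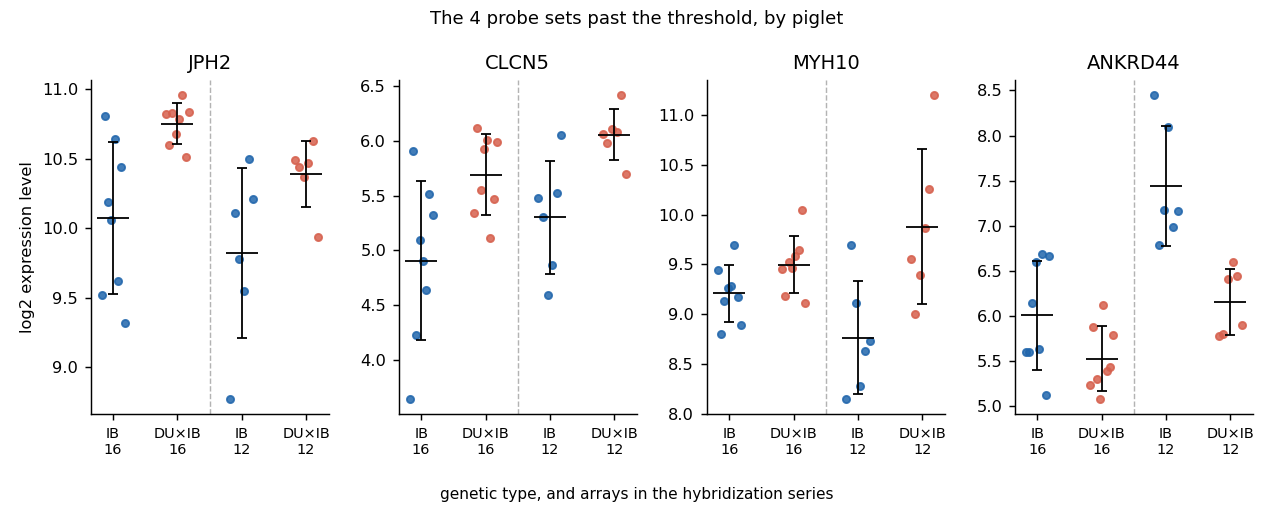
Log2 level of JPH2, CLCN5, MYH10 and ANKRD44 in each piglet, by genetic type and by the number of arrays in the hybridization series; each point is 1 array, and bars give the mean and SD. The crossbred piglets lie above the IB mean for JPH2 and CLCN5 in most cases in both series, while MYH10 and ANKRD44 separate further in the series of 12 (1.11 and -1.29) than in that of 16 (0.29 and -0.48).

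Of the genes for other ions, CLCN5 passed the test. It encodes a chloride and proton exchanger of endosomes, known best from the kidney. Its level in IB ran from 3.64 through 5.20 to 6.05, and in DU×IB from 5.11 through 5.98 to 6.42. The ranges overlapped, and the lowest crossbred value lay close to the IB median. CLCN5 was 1.71-fold higher in DU×IB, by 0.77 ± 0.19 with an adjusted p of 0.0270, and its call was also made without the series in the model (adjusted p = 0.0924). The difference was of one size in both series, 0.78 and 0.76, and 8 of 8 and 6 of 6 crossbred piglets exceeded the IB median of their series. Neither series alone passed (adjusted p = 0.759 and 0.105).

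The sodium and potassium pump was represented by subunits ATP1B3 and ATP1B4, of which ATP1B3 is a beta chain and ATP1B4 a beta-like protein that in placental mammals sits at the nuclear membrane of muscle. They differed by 0.22 ± 0.20 and 0.17 ± 0.18, with adjusted p of 0.695 and 0.756. KCNIP2, a calcium-binding partner of voltage-gated potassium channels, ran from 3.77 through 4.30 to 6.12 in IB and from 3.74 through 4.41 to 6.52 in DU×IB. Its difference was 0.30 ± 0.27 (adjusted p = 0.697), at 0.50 in the series of 16 and 0.03 in that of 12.

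The contractile isoforms of non-muscle cells and smooth muscle were the largest group here in which every member had one sign. All 10 probe sets, of 9 genes, were higher in DU×IB in the model, and so were all 10 within each series taken alone. The median difference was 0.39 (0.19 in the series of 16 and 0.65 in the series of 12), and the difference was larger in the series of 12 at each of the 10. MYH10 alone passed, and 6 of the 10 had an unadjusted p under 0.05, beside 8.42% of all probe sets in this direction. The 6 include MYH10 and MYL6, which the study selected on these same arrays, and both probe sets of TPM4. MYH10 could be a member only by having been selected. Over piglets, pairs among the 10 had a median r of 0.31 in the series of 16 and 0.66 in that of 12. The pair of TPM4 is left aside in these medians. The common sign is thus not 10 separate observations.

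MYH10 encodes the heavy chain of non-muscle myosin IIB, a motor of cell shape and division. Its level in IB ran from 8.15 through 9.12 to 9.70, and in DU×IB from 9.00 through 9.54 to 11.20. The ranges overlapped between 9.00 and 9.70, and the highest value was that of 1 crossbred piglet in the series of 12. MYH10 was 1.56-fold higher in DU×IB, by 0.64 ± 0.20 with an adjusted p of 0.0946. It differed by 0.29 within the series of 16 and 1.11 within that of 12 (interaction unadjusted p = 0.0351, adjusted p = 0.763), with 6 of 8 and 6 of 6 crossbred piglets above the IB median. The call ended when any 1 of 19 of the 28 piglets was left out (adjusted p from 0.0648 to 0.179 over all 28 omissions); it stayed only without IB piglet 1, 4, 6, 7 or 10 or DU×IB piglet 1, 2, 8 or 10. Without the crossbred piglet 14 the difference was 0.52.

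MYL6, the essential light chain that non-muscle and smooth muscle myosin share, ran from 8.81 through 10.07 to 10.73 in IB and from 9.88 through 10.32 to 10.93 in DU×IB. Its difference of 0.45 ± 0.16 had an unadjusted p of 0.00815 and an adjusted p of 0.161. Within the series of 12 it was 0.84 with an adjusted p of 0.0918 and within that of 16 it was 0.16. It also passed after quantile normalization (adjusted p = 0.0991), with a residual principal component in the model (0.0928) and without IB piglet 4 (0.0862). MYL6 is in the study's list too.

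The other members of this group gave smaller or less certain values. MYL9, the regulatory light chain of smooth muscle myosin, ran from 6.64 through 7.13 to 8.77 in IB and from 7.19 through 7.87 to 9.06 in DU×IB, a difference of 0.54 ± 0.22 (adjusted p = 0.266). The 2 probe sets of TPM4, a tropomyosin of non-muscle cells, differed by 0.44 ± 0.19 and 0.42 ± 0.17 (adjusted p = 0.300 and 0.255). ACTA2, smooth muscle alpha actin, differed by 0.31 ± 0.14 (adjusted p = 0.326). For these 3 genes the ranges of the types overlapped in both series. To account for every member, PDLIM4 and PDLIM1, actin-associated scaffolds, differed by 0.35 and 0.30, ACTN1, the non-muscle alpha actinin, by 0.21, and CSRP2, a LIM protein of smooth muscle, by 0.19, with adjusted p between 0.404 and 0.764.

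**Figure D3:**
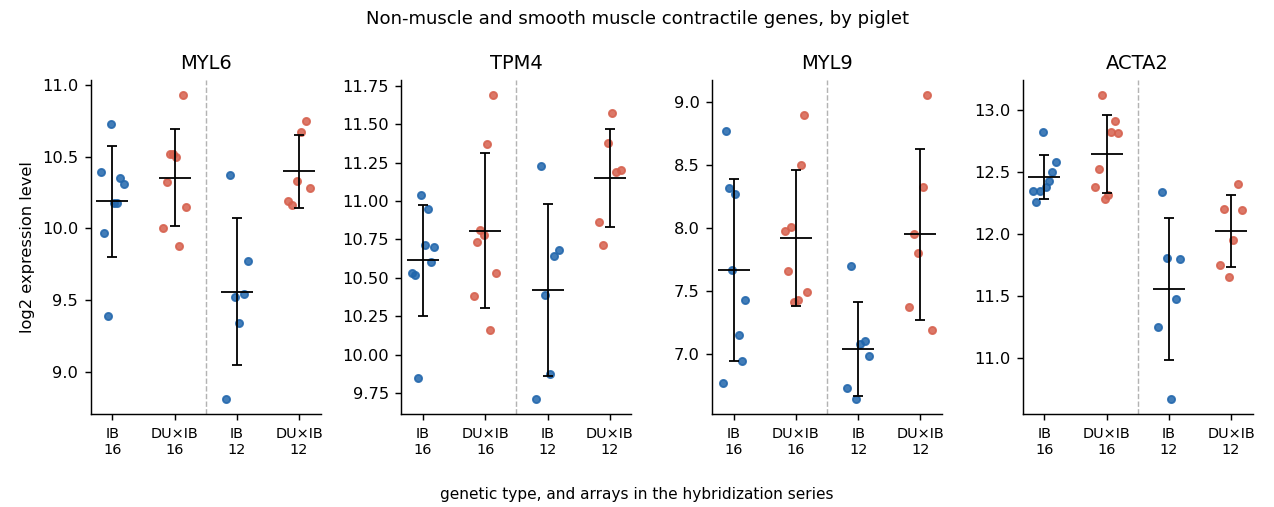
Log2 level of MYL6, TPM4 (2), MYL9 and ACTA2 in each piglet, by genetic type and number of arrays in the series; points are arrays, bars the mean and SD. Crossbred means exceed IB means in both series, by more in the series of 12 (0.84, 0.73, 0.91 and 0.47) than in that of 16 (0.16, 0.19, 0.26 and 0.19).

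Over piglets part of the pairs of these probe sets correlated in both series. Leaving aside the pair of TPM4, all 44 pairs correlated positively in the series of 12, with r of 0.09 to 0.93 (median 0.66), and 29 passed after adjustment by r and 26 by rho. In the series of 16, 36 of 44 were positive, r ran from -0.29 to 0.93 (median 0.31), and 11 passed by each measure. Without the 2 piglets farthest from the median of the first measure, the median r was 0.48 in the series of 12 and 0.28 in that of 16. Whether the series differ in this was not tested. Pairs of probe sets outside the members were not correlated, so these counts have no background beside them. MYL6 and TPM4 (1) correlated at r = 0.93 (rho = 0.82, r without 2 piglets 0.85) in the series of 16 and r = 0.90 (rho = 0.91, without 2 piglets 0.79) in that of 12. Their permutation p values were 1e-05 and 5e-05, adjusted to 0.000194 and 0.000680. MYH10 and MYL9 had r = 0.01 and 0.09 in the series of 16 and 12 (permutation p = 0.967 and 0.787).

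Markers of cells other than muscle fibres did not share one direction. Of 9 smooth muscle and pericyte markers, 5 were measured (ACTA2, CNN1, MYL9, RGS5 and TAGLN), of which ACTA2 and MYL9 are themselves members. Of the 5, 4 were higher in DU×IB (median 0.40) and none passed the adjusted threshold. An unadjusted p under 0.05 was found at 4 of them (80.0%, beside 13.8% of all probe sets). Their mean level per piglet ran from 7.95 through 9.10 to 9.61 in IB and from 8.70 through 9.27 to 9.90 in DU×IB. The fibroblast marker list had COL1A1 alone of 7 genes, which was higher in DU×IB by 1.21, past the threshold. COL1A1 was likewise selected by the study on these same arrays. It ran from 6.92 through 9.94 to 11.19 in IB and from 9.50 through 11.04 to 12.33 in DU×IB. Endothelial markers (4 of 7 genes) were higher at 5 of 6 probe sets, none past the threshold, and 1 of the 6 had an unadjusted p under 0.05 (16.7%). Their median difference was 0.23, with mean levels of 6.71 to 9.03 in IB and 6.95 to 8.45 in DU×IB. Macrophage markers (4 of 10 genes) were lower at 5 of 5, none past the threshold, with a median difference of -0.50 and mean levels of 4.77 to 7.10 in IB and 4.70 to 5.23 in DU×IB. At 3 of these 5 the unadjusted p was under 0.05 (60.0%, beside 13.8% of all probe sets). Of the adipocyte markers CFD and FABP4, 1 differed by -0.44 and 1 by 0.37, so their median of -0.03 joins opposite signs. Of these 2, 1 had an unadjusted p under 0.05 and none passed the adjusted threshold. The median difference was -0.02 over the 4 probe sets of MBP, the only nerve and Schwann cell marker measured. The part of these cells in the differences was not tested, and in whole muscle fewer cells of a type and less RNA per cell cannot be told apart.

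Among the remaining ankyrin repeat proteins, ANKRD44, a regulatory subunit of protein phosphatase 6, was the only member higher in IB to pass. Its level in IB ran from 5.12 through 6.68 to 8.45, and in DU×IB from 5.08 through 5.79 to 6.60. It was 1.77-fold higher in IB, a difference of -0.82 ± 0.20 with an adjusted p of 0.0270. On the 12 arrays of the smaller series, IB ran from 6.79 through 7.17 to 8.45 and DU×IB from 5.78 through 6.15 to 6.60, so the types did not overlap, as at 2.43% of all probe sets. On the other 16, IB ran from 5.12 through 5.89 to 6.69 and DU×IB from 5.08 through 5.41 to 6.12, and the types overlapped. The differences were -1.29 (adjusted p = 0.0712) and -0.48 (adjusted p = 0.997), with an unadjusted interaction p of 0.0458 that was 0.767 after adjustment. The level was also higher by 1.03 in the series of 12, and without series in the model the adjusted p was 0.243.

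ANKRD9, whose product takes part in protein turnover through a ubiquitin ligase, differed by 0.30 ± 0.18 (adjusted p = 0.494), and 7 of 8 and 6 of 6 crossbred piglets exceeded the IB median of their series. ANKRD10, ANKRD28 and ANKRD29 differed by -0.15, -0.03 and 0.07, with adjusted p of 0.702, 0.959 and 0.926. SCNM1 differed by -0.04 (adjusted p = 0.954), at -0.34 in the series of 16, where 0 of 8 crossbred piglets exceeded the IB median, and 0.35 in that of 12, where 5 of 6 did. Its interaction had an unadjusted p of 0.0391 and an adjusted one of 0.766.

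**Figure D4:**
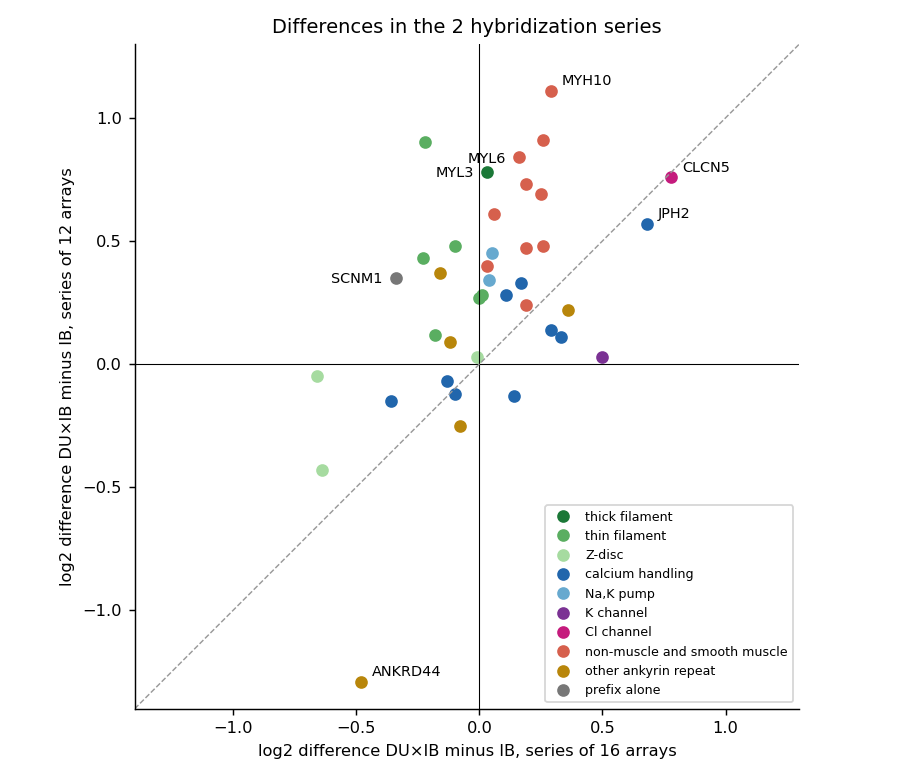
Difference between genetic types (DU×IB minus IB, log2) within the series of 16 arrays (horizontal) and of 12 arrays (vertical), 1 point per probe set, coloured by role; the dashed line marks equal differences. CLCN5 (0.78 and 0.76) and JPH2 (0.68 and 0.57) lie near the line, and the non-muscle and smooth muscle probe sets lie above it, on the positive side of both axes.

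The size of the difference exceeded that of the series of 16 in the series of 12 at 26 of 39 members (66.7%, beside 64.0% of all probe sets). The signs were equal in both series at 29 members (74.4%, beside 55.6%). Outside the study's list they were equal at 24 of 34 members (70.6%, beside 53.3% of all probe sets outside it). The interaction of type and series passed at no probe set in limma, at an unadjusted p under 0.05 at 6 members (15.4%) and 333 of all (6.37%). Of the 34 members outside the study's list, 3 had such a p (8.82%, beside 6.22% of all probe sets outside it). Within series, IB piglets spread more widely than DU×IB piglets at 31 members (79.5%), close to the 76.4% of all probe sets. The median SD was 0.51 in IB and 0.43 in DU×IB.

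Lists that distinguish fibre types had few measured genes. Of 16 slow fibre genes, ATP2A2, MYL3, PLN and TPM3 were measured by 6 probe sets, of which 5 were higher in DU×IB and none passed, with a median of 0.20 (0.07 in the series of 16, 0.31 in that of 12). Of 15 fast fibre genes, ATP2A1 alone was measured, and both its probe sets were lower in DU×IB without passing. Correlations among piglets depended on the probe set. In the series of 12, MYL3 correlated with PLN (2) at r = 0.78 (rho = 0.88, permutation p = 0.00289, adjusted p = 0.0146; r without 2 piglets 0.75) and with ATP2A2 (2) at r = 0.75 (rho = 0.79, permutation p = 0.00509, adjusted p = 0.0221; without 2 piglets 0.71). ATP2A2 (2) and PLN (2) correlated at r = 0.91 (rho = 0.83, permutation p = 5e-05, adjusted p = 0.000680; without 2 piglets 0.79). The other ATP2A2 probe set, ATP2A2 (1), had r = -0.11 and -0.07 with the PLN probe sets, -0.19 with MYL3 and -0.29 with TPM3 in that series (permutation p = 0.731, 0.825, 0.557 and 0.348). Its level was low, with means of 4.47 in IB and 4.65 in DU×IB. In the series of 16 the 3 pairs of MYL3 with PLN (2), MYL3 with ATP2A2 (2) and ATP2A2 (2) with PLN (2) gave r = -0.11 (rho = -0.20), -0.14 (rho = -0.07) and 0.52 (rho = 0.41), the last with adjusted p of 0.0915 by r and 0.228 by rho, and r = 0.35 without 2 piglets. Over 13 such pairs, 5 passed in the series of 12 and 1 in that of 16. Whether the correlations differ between series, or from those of probe sets outside the members, was not tested.

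**Figure D5:**
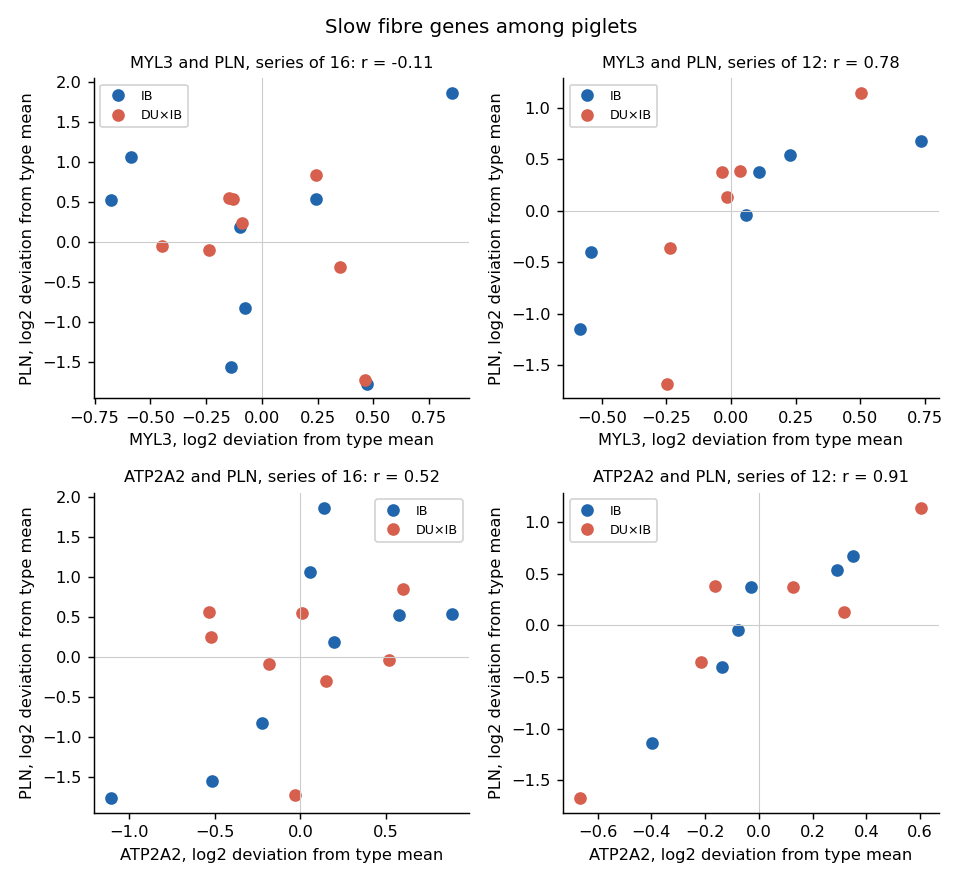
Deviations of slow fibre genes from the mean of their genetic type, 1 point per piglet: PLN (2) against MYL3 above and against ATP2A2 (2) below, in log2 units, with the series of 16 arrays on the left and of 12 on the right. MYL3 and PLN (2) correlate at r = 0.78 in the series of 12 and -0.11 in that of 16.

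The same structures hold genes with other names. Of 58 further genes of the sarcomere, its attachment and calcium handling, 13 were measured by 15 probe sets, of which 12 were higher in DU×IB (80.0%, beside 52.5% of all probe sets), with a median of 0.15 (0.02 over all), and 1 passed (6.67%, beside 2.77%). This was FKBP1A, the immunophilin FKBP12 that binds and steadies the ryanodine receptor, at 6.96 ± 0.55 in IB and 7.50 ± 0.34 in DU×IB (SD, n = 14 each). It differed by 0.54 ± 0.15 with an adjusted p of 0.0609 (0.38 in the series of 16 and 0.75 in that of 12), was likewise selected by the study on these arrays, and did not pass without series in the model (adjusted p = 0.272). Others of this list that did not pass were TRIM55, a titin-associated ubiquitin ligase, at 0.29, NRAP, an adaptor of assembling myofibrils, at 0.30, TMEM38A, a counter-ion channel of the sarcoplasmic reticulum, at 0.25, and HRC, a calcium-binding protein inside it, at 0.12, with adjusted p between 0.429 and 0.758. These names were chosen after their values were seen, and all are higher in DU×IB. The 3 probe sets lower in DU×IB were of XIRP1 (-0.32), CRYAB (-0.26, and 0.03 at its other probe set) and S100A1 (-0.12). Their adjusted p were 0.889, 0.767 and 0.838.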

How the data were processed

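Total RNA of loin muscle was hybridized to Affymetrix porcine arrays. The authors processed the images with GCOS and deposited GCRMA-normalized log2 values, keeping probe sets in which more than 20% of values lay at least 1.5-fold from the median, a filter all 5226 deposited rows met. Quantile normalization within GCRMA forces arrays to one distribution before filtering, so values are relative. Symbols came from the study's gene list, else from the platform annotation, which can be old (2480 probe sets named). The labels do not name the hybridization series. It was recovered by splitting the mean of 10 bacterial spike-in probe sets at its largest gap, which gave the stated 16 and 12 arrays.

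Differences were fitted with limma 3.58.1 in R 4.3.3 (lmFit and eBayes, two-sided, genetic type and series, Benjamini-Hochberg over all 5226 probe sets, adjusted p under 0.10). Piglets were the replicates, 14 arrays a type, and littermates among them were counted as independent. Each type therefore holds fewer families than arrays, DU×IB the fewest, and the standard errors and p-values leave this out. The intervals are 95% intervals of the moderated test. Correlations used 100000 resamples in scipy 1.17.1. Named individually were members past the threshold or with an unadjusted p under 0.05, the 2 brightest and the 2 of lowest p in each role, genes with several probe sets, and members whose interaction passed. PDLIM1, PDLIM4, PDLIM5, ACTN1, CSRP2, TPM3, TNNI3, ANKRD28 and ANKRD29 fall outside this rule and are given to account for every member. Members, roles, lists and rule were chosen with earlier results of these data known, and the pairs of one gene and of the non-muscle group after the data were seen.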

Additional observations from a re-analysis of the deposited data

How the results depend on the processing

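The count of 4 members past the threshold became 1 without the series in the model, 0 within the series of 16, 2 with arrays centred on their medians and 1 with platform names alone, an alternative chosen after seeing the data. It was 3 within the series of 12 and at a threshold of 0.05, 5 after quantile normalization or with the first residual principal component, 3 with a replicate block, 3 to 5 with single piglets left out, and 4 under array weights, a trended and robust prior, a random series block, and with dim probe sets or those open to several transcripts left out. Shares over all probe sets were computed only for the main fit, platform names, the fit without series and each series alone. The other counts stand without such a background. The replicate numbers did not pair the piglets: same-numbered residuals correlated at -0.35 to 0.535, over 0.1 in 2 of 14 pairs, and with the replicate block MYH10 was lost (0.64, adjusted p = 0.166). Centring MYH10 gave 0.61 (adjusted p = 0.121). Some differences that had not passed changed sign. Within the series of 16 these were PDLIM5 (-0.01), ANKRD29 (-0.16), TPM3 (-0.10) and 3 probe sets of TPM2 (-0.0044, -0.22 and -0.23); within that of 12 they were RYR1 (-0.13), SCNM1 (0.35), ANKRD28 (0.09) and TNNI3 (0.12). PDLIM5 was also -0.02 with centring, -0.03 with quantiles and -0.10 with array weights, and RYR1 -0.01 with centring. With single piglets left out, ANKRD28 ran from -0.09 to 0.02, ANKRD29 from -0.02 to 0.13, PDLIM5 from -0.06 to 0.11, RYR1 from -0.02 to 0.08, SCNM1 from -0.16 to 0.03, TNNI3 from -0.15 to 0.07 and TPM2 (4) from -0.01 to 0.11. The cause of these shifts was not tested. The signal over background of the arrays was not analysed here, and no member fell under a mean of 4 in both types.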
